A study of Mus musculus with 6 samples.

Results

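The SLC25 family of mitochondrial carriers was examined in regulatory T cells (Tregs, the CD4 T cells that carry Foxp3 and restrain other immune cells). Members were all rows of the deposited count table whose gene name begins with Slc25a, which gave 40 of 13623 genes. The 6 mRNA libraries were made from liver Tregs of untreated mice aged 14 months. There were 3 libraries labelled Altre WT (wild type) and 3 labelled Altre knockout, Altre being a gene for a non-coding transcript studied in Tregs. The labels do not give the strain, the extent of the deletion, the cells in which it acts, or whether each library is a separate animal. The p-values therefore reflect only how far these libraries differ among themselves, which may be technical. Expression of Altre, and with it a check of the genotype labels, was not analysed here.

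SLC25 proteins are the main route for small molecules across the mitochondrial inner membrane. Most are exchangers built from 3 similar repeats, and each takes a narrow set of substrates: ADP and ATP, phosphate, di- and tricarboxylates, amino acids, carnitine esters, cofactors, iron or glutathione. In T cells these carriers link respiration to the cytosolic pools of ATP, citrate and aspartate that growth and effector function draw on.

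No carrier differed between genotypes at an adjusted p of 0.05, and the most abundant carriers had nearly equal levels in wild type and knockout. Of the 40 members 39 passed the filter on low counts and were tested, Slc25a18 being the exception. By the edgeR quasi-likelihood test with Benjamini-Hochberg adjustment over all 12789 genes tested, 0 members were called, against 0.0% of all genes, and the smallest adjusted p of a member was 0.842. At an unadjusted p under 0.05 (edgeR) there were 4 members (10.3%), against 5.82% of all genes. Of these 3 were higher in knockout (Slc25a25, Slc25a45 and Slc25a30), against 2.72% of all genes, and 1 was lower (Slc25a38), against 3.1%. The median log2 fold change over the 39 was 0.01, against 0.00 over all genes tested, with 20 members higher and 19 lower. DESeq2 and limma-voom also called 0 members, against 0.368% and 0.0% of all genes, and so did the fits with the replicate number as a term, against 0.125% by edgeR and 1.79% by DESeq2. None of the 40 members had an adjusted p under 0.05 in the authors' deposited table, against 1.82% of the genes used, the smallest value being 0.244 for Slc25a38 and Slc25a25.

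Counts over the listed genes summed to between 25315425 and 30870786 per library, and the SLC25 rows took 0.273% to 0.299% of them. All 8 Treg and T cell markers had a row, 5 averaging higher in the knockouts and 3 (Ikzf2, Cd3d and Trac) lower. Foxp3 averaged 79.2 ± 7.91 CPM (wild type) and 108 ± 32.5 CPM (knockout; SD, n = 3), where CPM is the usual depth-scaled count, here on library sizes normalised by TMM. Il2ra averaged 305 ± 50.03 and 434 ± 45.4 CPM and Cd4 798 ± 90.2 and 1081 ± 154 CPM in the same order, both without overlap, at unadjusted p-values of 0.00503 and 0.00719 and adjusted p-values of 0.837 and 0.842 (edgeR). None of 10 hepatocyte marker names matched a row used here. Of 12 macrophage and Kupffer cell markers 11 had a row, and 10 of these averaged higher in the knockouts. Of the 10, 6 had an unadjusted p under 0.05 (edgeR), against 2.72% of all genes higher at that p. The exception, C1qc, averaged 20.4 ± 13.3 CPM (wild type) and 8.81 ± 8.15 CPM (knockout; SD, n = 3). The summed level of the 11 was 153 to 206 CPM in wild type and 220.4 to 319 CPM in the knockouts. Summed levels over all 6 libraries were 2381 to 3775 CPM for 6 B cell markers, 103 to 282 CPM for 6 CD8 T and NK cell markers and at most 1.17 CPM for 1 neutrophil marker. Of 5 liver endothelial markers 2 had a row, and their summed level, nearly all of it Pecam1, was 95.7 to 126 CPM in wild type and 139 to 158 CPM in the knockouts. Pecam1 did not overlap between genotypes (unadjusted p = 0.00933, adjusted p = 0.842, edgeR). Of 10 erythroid markers 9 had a row, and their summed level stood apart in wild-type replicate 2 at 233 CPM, against 70.1 to 107 CPM in the other 5 libraries. In bulk RNA, fewer cells of a type and less RNA per cell cannot be told apart.

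Per kb of exon, levels of the 40 Slc25a rows spanned more than 3 orders of magnitude and were led by the ADP/ATP carriers. Ucp2, a family member under another symbol, is not among these rows or in their total. It averaged 1371 ± 121 CPM (wild type) and 1496 ± 194 CPM (knockout; SD, n = 3). Slc25a5 averaged 1047 ± 108 and 1052 ± 141 CPM in the same order. On the scale of CPM per kb of exon union, Slc25a5, which encodes the main ADP/ATP exchanger of dividing cells, averaged 638 ± 68.3 (SD over 6 libraries) and made up 54.9% of the family total. Slc25a4, the ADP/ATP carrier typical of heart and muscle, followed at 105 ± 15.0, then Slc25a11, the oxoglutarate/malate carrier, at 91.7 ± 3.65 and Slc25a3, which brings phosphate in for ATP synthesis, at 71.9 ± 5.20. These 4 genes together held 78.1% of the family total. Slc25a5 had rank 1 and Slc25a3 rank 4 in all 6 libraries on this scale. The exon union holds every annotated exon base, whether or not it is used in these cells, so the order depends on it. The union is 5550 bases for Slc25a3, 2353 for Slc25a4 and 2120 for Slc25a11. Before division by length Slc25a3 averaged 399 CPM, above Slc25a4 at 246 CPM and Slc25a11 at 195 CPM. Slc25a4 and Slc25a11 did not differ beyond their spread, since Slc25a11 ranked above Slc25a4 in wild-type replicate 1 and below it in the other 5. Next came the glutathione carrier Slc25a39 at 42.0 ± 8.12 and Slc25a17, a peroxisomal carrier of coenzyme A and related cofactors, at 33.6 ± 2.21, and these changed places in knockout replicates 2 and 3. From the citrate carrier Slc25a1 (16.8 ± 2.95) down to the NAD carrier Slc25a51 (10.1 ± 1.61), 8 genes lay so close that their order changed from library to library. At the foot were Slc25a47, a carrier gene known for its expression in hepatocytes, at 0.139 ± 0.164 and the glutamate carrier Slc25a18 at 0.129 ± 0.0866. Slc25a2, Slc25a21, Slc25a31, Slc25a34, Slc25a41, Slc25a48 and Slc25a54 had no row and were not analysed here.

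**Figure D1:**
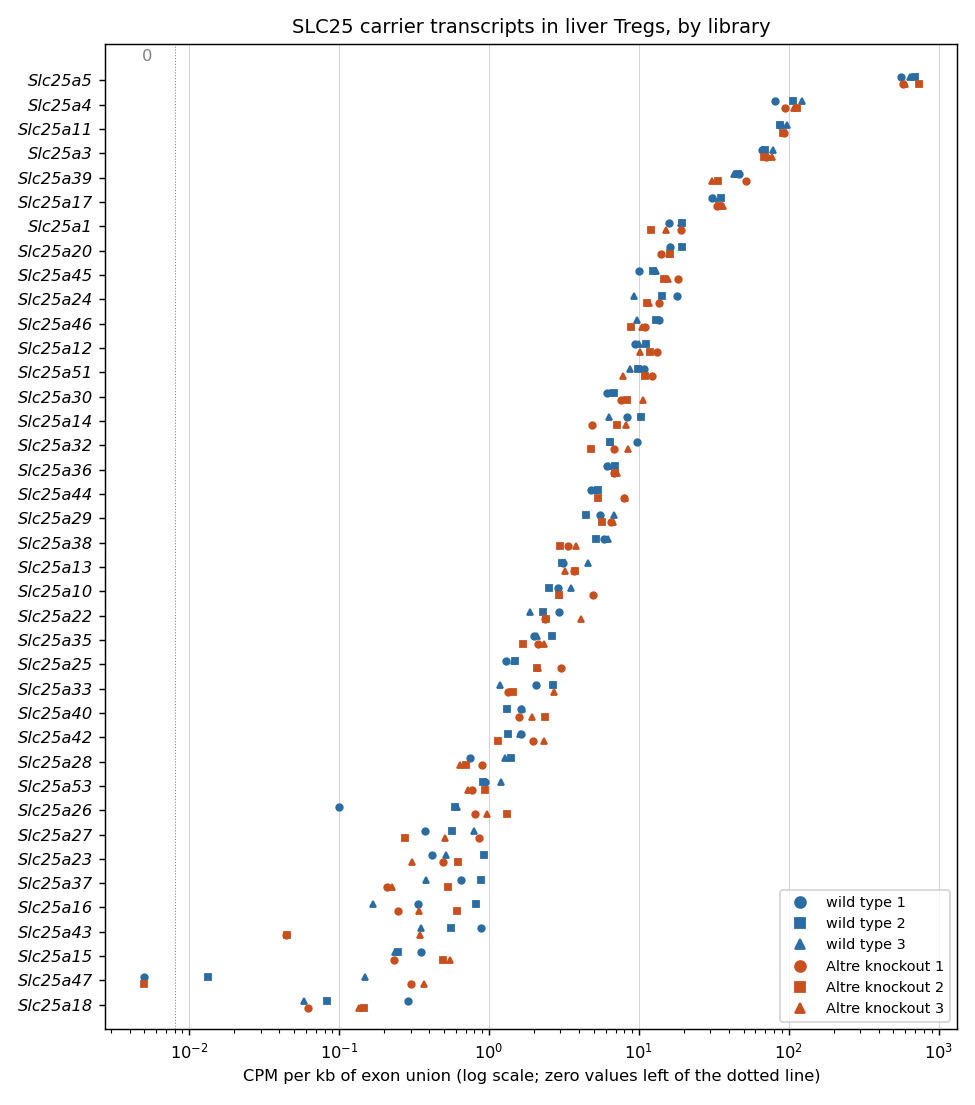
Levels of SLC25 rows (39 of 40) in each library, in CPM per kb of exon union on a log axis, with genes ordered by their mean over the 6 libraries (blue, wild type; orange, knockout; circles, squares and triangles, replicates 1, 2 and 3). Slc25a5 stands at 638 on average, about 6 times Slc25a4, while Slc25a47 was at 0 in 2 libraries.

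The 2 abundant ADP/ATP carriers share a protein family but not a chromosome, Slc25a5 lying on chromosome X (36795651 to 36798807, GRCm38) and Slc25a4 on chromosome 8 (46206797 to 46211284). Their coding sequences in GENCODE M21 are both 897 bases and are 77.5% identical, with 202 mismatches and a longest shared run of 20 bases. Coding positions 287 to 376, which surround that run, are shown because they bear on whether reads of the 2 genes can be told apart, with mismatches in capitals (19 of 90 bases).
Slc25a4: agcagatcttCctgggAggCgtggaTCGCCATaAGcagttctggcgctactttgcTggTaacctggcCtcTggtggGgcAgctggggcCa
Slc25a5: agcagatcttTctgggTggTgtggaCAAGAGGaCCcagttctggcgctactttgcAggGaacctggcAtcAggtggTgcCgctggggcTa
Slc25a5 has closer relatives among processed pseudogenes, Gm5560 and Gm5529, which match its coding sequence at 98.3% over 887 bases and at 96.8% over 900 bases. How reads shared with them were counted is not given in the sources used here, so the Slc25a5 level is uncertain to that extent. Slc25a36 and Slc25a40 also have pseudogene copies of at least 95% identity, Gm13217 and Gm5066.

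Among carriers of adenine nucleotides and phosphate, levels of the 3 abundant genes were close in the genotypes. Slc25a5 had 931, 1146 and 1063 CPM in the wild-type libraries (replicates 1, 2 and 3) and 957, 1214 and 986 CPM in the knockouts. Slc25a4 had 190.4, 251 and 290.2 CPM in the wild types and 223, 269 and 254 CPM in the knockouts. Slc25a3 had 369, 383 and 439 CPM in the wild types and 392, 380.3 and 431 CPM in the knockouts. For all 3 the genotypes overlapped, and the lowest Slc25a5 and Slc25a4 values were those of wild-type replicate 1. The 95% interval of the log2 fold change ran from -0.27 to 0.29 for Slc25a5, from -0.33 to 0.38 for Slc25a4 and from -0.24 to 0.27 for Slc25a3. The ratio of Slc25a5 to Slc25a4 per kb was 6.99, 6.53 and 5.24 in wild type and 6.14, 6.45 and 5.56 in knockout. The knockout ratios lay inside the wild-type range, so the isoform balance overlapped between genotypes.

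The calcium-regulated ATP-Mg/phosphate carriers, which adjust the total adenine nucleotide pool of the matrix, were less uniform. Slc25a25 (chromosome 2, 32414487 to 32451445) had 10.2, 11.7 and 11.6 CPM in the wild types and 23.9, 16.4 and 16.8 CPM in the knockouts. Every knockout library lay above every wild-type library, and knockout replicate 1 was the highest. The log2 fold change was 0.77 ± 0.24 (SE), a 1.71-fold difference with a 95% interval from 0.24 to 1.30 on the log2 scale, an unadjusted p of 0.00867 and an adjusted p of 0.842 (edgeR). Its exons overlap those of Naif1 on the opposite strand over 379 bases, and whether counting used strand is not given in the sources used here. Naif1 itself had a log2 fold change of -0.12 ± 0.25 (SE). It overlapped between genotypes, at 16.7 to 20.6 CPM in wild type and 11.8 to 19.2 CPM in knockout, and its part in the Slc25a25 counts was not tested. Of the relatives of Slc25a25, Slc25a24 ranged from 32.1 to 61.6 CPM in wild type and from 39.1 to 46.5 CPM in knockout, and Slc25a23 from 1.61 to 4.91 CPM over all libraries. The summed macrophage and Kupffer cell markers (206, 179 and 153 CPM in the wild types, 220.4, 319 and 300.0 CPM in the knockouts) were also higher in every knockout library. So was the endothelial sum (126, 113 and 95.7 CPM, then 139, 156 and 158 CPM), which was nearly all Pecam1. The other endothelial marker with a row, Stab2, overlapped, at 1.07 to 1.86 CPM in wild type and 0.670 to 2.77 CPM in knockout. The part of these markers in the Slc25a25 values was not tested.

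Start regions were searched for short motifs, since Slc25a25 and Slc25a38 had the smallest p-values of the family. RefSeq start regions on GRCm38.p6 were found for 31 of the 40 members, and the 250 bases before each start were scanned on both strands. The cAMP response element TGACGTCA was present in 2 of 31 members, Slc25a25 and Slc25a36, against 1.77% of all 27025 genes with a start region. In Slc25a25 it lay in 1 of 3 start regions, with its first base 150 bases before the start, and is shown in capitals in chr2:32424067-32424316 (minus strand). That start lies inside the annotated gene, which begins at 32451445 on this strand, and which start these cells use was not tested. In Slc25a36, a pyrimidine nucleotide carrier, it began 161 bases before the start, and 30 bases around it are shown from chr9:97111184-97111213 (minus strand). Of the 250 bases searched there, 116 lie in annotated exons. The region before the start of Slc25a38, chr9:120110132-120110373 (plus strand), held none of the motifs.
Slc25a25: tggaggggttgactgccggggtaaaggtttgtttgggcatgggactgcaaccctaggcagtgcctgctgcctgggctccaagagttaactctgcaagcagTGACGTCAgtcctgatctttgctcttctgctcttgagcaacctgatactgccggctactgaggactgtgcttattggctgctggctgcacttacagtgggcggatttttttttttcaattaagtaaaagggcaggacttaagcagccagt
Slc25a36: tgcgaacctcgTGACGTCAcgcggcctaag
Slc25a38: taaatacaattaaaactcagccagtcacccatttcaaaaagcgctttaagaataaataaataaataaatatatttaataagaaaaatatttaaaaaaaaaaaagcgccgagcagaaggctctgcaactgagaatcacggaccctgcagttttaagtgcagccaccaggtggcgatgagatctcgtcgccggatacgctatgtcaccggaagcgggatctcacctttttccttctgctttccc
Slc25a25 and Slc25a36 carried the same element, and the log2 fold change was 0.77 for Slc25a25 and 0.10 for Slc25a36, whose 95% interval ran from -0.19 to 0.40. The E-box CACGTG was present in 6 of 31 members (Slc25a1, Slc25a13, Slc25a14, Slc25a15, Slc25a33 and Slc25a36), against 6.86% of all genes, the AP-1 motif TGANTCA in 2 (7.82% of genes), the NRF1 motif in 1 (Slc25a3; 4.23%) and the YY1 motif AANATGGC in 1 (4.49%). A match of letters is a description and not a site shown to be bound.

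The carriers of di- and tricarboxylates feed the malate-aspartate shuttle and export citrate for lipid synthesis. Slc25a11 had 185, 187 and 206 CPM in the wild types and 196, 194 and 198 CPM in the knockouts. It had the narrowest spread of the family, the highest library being 1.11 times the lowest, and a 95% interval of the log2 fold change from -0.22 to 0.27. The citrate carrier Slc25a1 ranged from 34.2 to 42.3 CPM in wild type and from 26.2 to 41.5 CPM in knockout, so the genotypes overlapped. The member of this class with the smallest p was Slc25a30, a relative of the uncoupling proteins known from kidney. It had 27.9, 31.1 and 29.4 CPM in the wild types and 34.7, 37.8 and 48.6 CPM in the knockouts. Every knockout library lay above every wild-type library, with a log2 fold change of 0.46 ± 0.18 (SE), an unadjusted p of 0.0307 and an adjusted p of 0.842 (edgeR). Without knockout replicate 3, its highest library, the log2 fold change was 0.30 with an unadjusted p of 0.155 (edgeR). The other 4 tested genes of the class, Slc25a10, Slc25a14, Slc25a27 and Slc25a35, had log2 fold changes from -0.31 to 0.27 and overlapped between genotypes. Exons of Slc25a35 overlap Rangrf on the opposite strand over 1151 bases (31.3% of its exon union) and those of Slc25a11 overlap Rnf167 over 189 bases, so reads of those stretches cannot be assigned without strand.

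Amino acid and carnitine carriers included the 1 member that was lower in knockout at an unadjusted p under 0.05. Slc25a38 (chromosome 9, 120110374 to 120124504) imports glycine, the first substrate of haem synthesis, and its loss causes sideroblastic anaemia in humans. It had 16.0, 14.2 and 17.0 CPM in the wild types and 9.31, 8.17 and 10.5 CPM in the knockouts. The genotypes did not overlap, and the log2 fold change was -0.75 ± 0.23 (SE), with a 95% interval from -1.27 to -0.24. The unadjusted p was 0.00875 and the adjusted p 0.842 (edgeR). The summed level of erythroid markers, which mark cells known for high haem synthesis, was 107, 233 and 70.1 CPM in the wild types and 77.9, 85.9 and 84.6 CPM in the knockouts, and their part in the Slc25a38 values was not tested.

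Slc25a45, an inner membrane carrier of methylated amino acid derivatives, had 27.7, 34.5 and 36.0 CPM in the wild types and 50.4, 41.0 and 43.3 CPM in the knockouts. All knockout values lay above all wild-type values, and the log2 fold change was 0.46 ± 0.17 (SE), with an unadjusted p of 0.0255 and an adjusted p of 0.842 (edgeR). Without wild-type replicate 1 it was 0.35 with an unadjusted p of 0.0821 (edgeR), and without knockout replicate 1 it was 0.37 with 0.0856. Slc25a12, an aspartate/glutamate carrier of the malate-aspartate shuttle, had 69.6, 81.5 and 73.2 CPM in the wild types and 96.9, 86.7 and 74.7 CPM in the knockouts. Its genotypes overlapped through knockout replicate 3. The paralog Slc25a13, which has the same exchange and prevails in liver tissue, stood at 0.278 to 0.459 times Slc25a12 per kb over the 6 libraries. Slc25a20, which brings acylcarnitines in for beta-oxidation, had 77.7, 94.7 and 78.1 CPM in the wild types and 67.8, 78.0 and 76.5 CPM in the knockouts. It overlapped between genotypes, with a 95% interval from -0.49 to 0.14. Slc25a44, a carrier of branched-chain amino acids, had 18.2 ± 1.05 CPM (wild type) and 25.6 ± 5.61 CPM (knockout; SD, n = 3), and knockout replicate 2 lay at the level of the wild types. Slc25a15, Slc25a22 and Slc25a29 overlapped between genotypes with log2 fold changes from 0.17 to 0.62. Slc25a47 had 0, 1 and 12 counts in wild type and 23, 0 and 34 counts in knockout, too few and too scattered for a fold change to be read.

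**Figure D2:**
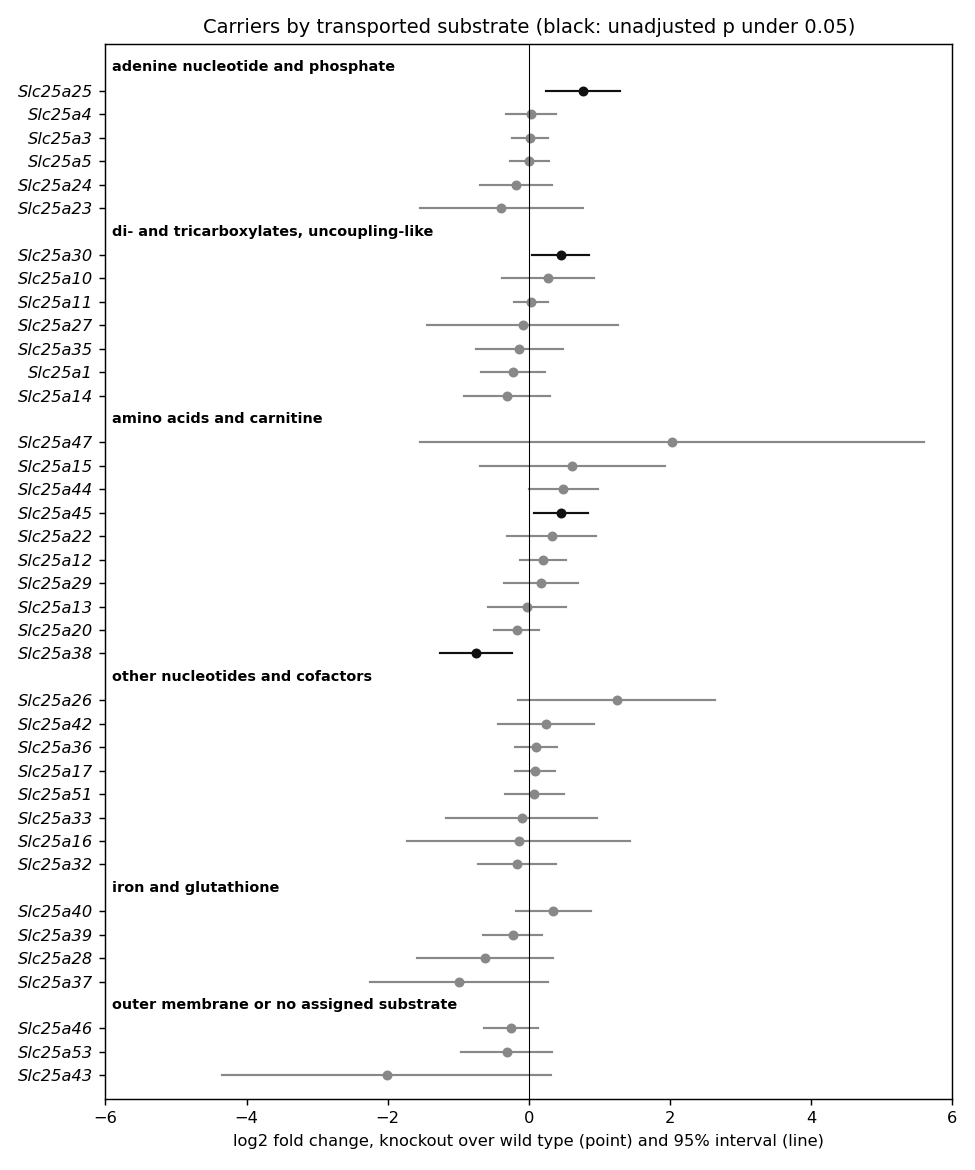
Log2 fold change of all but 1 of the 39 tested SLC25 rows, knockout over wild type, grouped by substrate, with points for the estimates and lines for the 95% intervals (edgeR). The 4 black rows had an unadjusted p under 0.05 and none passed after adjustment, and intervals are widest for Slc25a43 and Slc25a47, which average under 100 counts.

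Cofactor and nucleotide carriers overlapped between genotypes in 8 of 9 genes. Slc25a17 had 87.9, 101 and 89.7 CPM in the wild types and 94.0, 97.0 and 104 CPM in the knockouts, with a 95% interval of the log2 fold change from -0.20 to 0.36. The exception was Slc25a26 (chromosome 6, 94500331 to 94604672), which imports S-adenosylmethionine, the methyl donor for mitochondrial RNA and protein. It had 0.483, 2.85 and 2.95 CPM in the wild types and 3.87, 6.34 and 4.67 CPM in the knockouts. The genotypes did not overlap, and wild-type replicate 1, with 14 counts, lay far below the other 5 libraries. The log2 fold change of 1.24 ± 0.62 (SE) did not pass (unadjusted p = 0.0747, adjusted p = 0.882, edgeR), and without that library it was 0.77. By limma-voom it was 1.64 at an unadjusted p of 0.0268, and with the replicate number as a block it was 1.53 at 0.0286 (edgeR) and 1.54 at 0.0146 (DESeq2), with adjusted p-values from 0.287 to 1.00 over all alternatives. Lrig1, whose exons overlap it on the opposite strand over 144 bases, had 10.1, 18.8 and 17.0 CPM in the wild types and 24.4, 27.4 and 22.7 CPM in the knockouts. Its genotypes did not overlap, and its log2 fold change of 0.70 ± 0.26 (SE; unadjusted p = 0.0216, adjusted p = 0.842, edgeR) had the same direction as that of Slc25a26. Without strand the reads of the overlap cannot be told apart. The folate and FAD carrier Slc25a32, the NAD carrier Slc25a51, Slc25a16, Slc25a33, Slc25a36 and the coenzyme A carrier Slc25a42 had log2 fold changes from -0.17 to 0.24.

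Iron and glutathione carriers had lower means in knockout for 3 of 4 genes, and none had an unadjusted p under 0.05 over all libraries. Slc25a39 had 128, 127 and 119 CPM in the wild types and 142, 92.8 and 84.4 CPM in the knockouts. Knockout replicate 1 was its highest library and the other 2 knockouts its lowest, so the genotypes overlapped. Without knockout replicate 1 its log2 fold change went from -0.23 to -0.49, with an unadjusted p of 0.00576 (edgeR). Its relative Slc25a40 had 13.8, 11.1 and 13.8 CPM in the wild types and 13.3, 19.8 and 16.3 CPM in the knockouts, and overlapped. Per kb Slc25a40 stood at 0.0289 to 0.0702 times Slc25a39. The ratio was highest in knockout replicates 2 and 3, in part because Slc25a39, its divisor, was lowest there. Slc25a37 (mitoferrin 1), the iron importer that erythroid cells depend on, had 3.93, 5.35 and 2.29 CPM in the wild types and 1.26, 3.23 and 1.35 CPM in the knockouts. It was highest in wild-type replicate 2, the library with the highest erythroid markers (Hba-a1 at 57.8 CPM there and 17.4 to 23.5 CPM elsewhere), and their part in its level was not tested. Its log2 fold change of -0.98 became -0.69 without that library and -1.57, at an unadjusted p of 0.0282, without knockout replicate 2 (edgeR). The wider-expressed mitoferrin Slc25a28 had 4.29 ± 1.31 CPM (wild type) and 2.79 ± 0.503 CPM (knockout; SD, n = 3), and overlapped.

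Of the remaining members, Slc25a46 is an outer membrane protein that acts in mitochondrial shape and lipid exchange rather than as a known carrier. It had 73.5, 70.9 and 52.7 CPM in the wild types and 60.0, 48.1 and 57.1 CPM in the knockouts, and overlapped. Slc25a43 has no assigned substrate and lies on chromosome X (36743659 to 36777202), the annotated gene ending before Slc25a5 starts. It had 46, 25 and 17 counts in wild type and 2, 2 and 19 counts in knockout, or 1.59, 0.990 and 0.628 CPM against 0.0789, 0.0798 and 0.612 CPM. The genotypes did not overlap, but knockout replicate 3 lay just under wild-type replicate 3, and the 95% interval of the log2 fold change (-4.34 to 0.32) held 0. The estimate of -2.01 was -3.67 without knockout replicate 3. Slc25a53 ranged from 5.80 to 9.53 CPM and overlapped. In all, 6 of the 39 tested members (15.4%) did not overlap between genotypes, against 10.3% of all genes tested. Of these 4 were higher in knockout (against 5.6% of all genes) and 2 lower (against 4.67%). They were the 4 with an unadjusted p under 0.05, Slc25a26 and Slc25a43. The 4 higher ones (Slc25a25, Slc25a26, Slc25a30 and Slc25a45) were grouped by lying above wild type in every knockout library. The summed macrophage and Kupffer cell markers, the endothelial sum (nearly all Pecam1), Il2ra and Cd4 were also higher in every knockout library. Il2ra and Cd4 were picked from 8 Treg and T cell markers, of which Ikzf2, Cd3d and Trac averaged lower, as did C1qc among the macrophage markers. For genes picked as higher, a shared direction is fixed by the choice. The part of any of these markers in the carrier values was not tested.

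**Figure D3:**
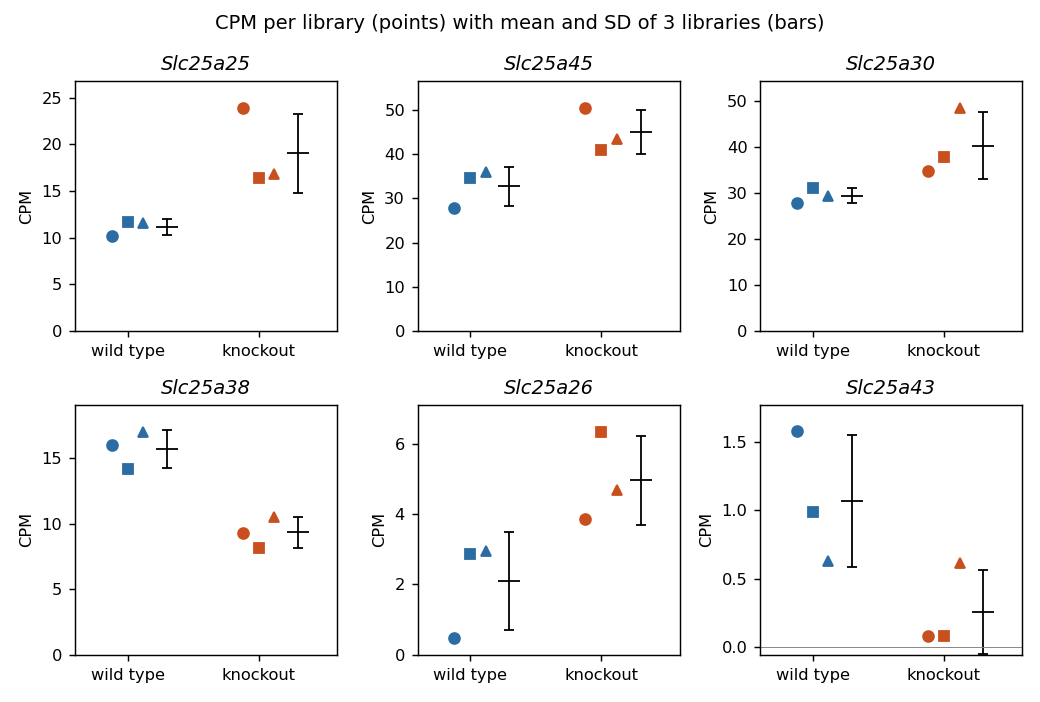
CPM in each library for the 6 members whose genotypes did not overlap, with circles, squares and triangles for replicates 1, 2 and 3 and bars for the mean and SD of 3 libraries. Slc25a38 and Slc25a43 are lower in all knockout libraries and the other 4 are higher, with wild-type replicate 1 far below the rest for Slc25a26 and replicate 3 of both genotypes nearly level for Slc25a43.

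The spread between libraries followed abundance. The 15 members averaging over 1000 counts had a median SE of 0.16 on the log2 scale, the 14 between 100 and 1000 counts 0.24, and the 10 tested members under 100 counts 0.60. For 11 of the 39 tested members the 95% interval lay wholly within a 1.5-fold change in either direction (28.2%, against 34.4% of all genes tested), and 10 of these 11 averaged over 1000 counts. For the other tested members the interval reached past 1.5-fold, so changes of that size could be hidden. These were all 10 under 100 counts, all but 1 of the 14 between 100 and 1000, and some over 1000 counts.

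The partners of the carriers showed no call either, by the same test. Carriers reach the inner membrane through the TIM22 route, and of its 13 genes 5 averaged higher and 8 lower in the knockouts, and the median log2 fold change was -0.04. Timm29, a subunit of that complex, had 76.6, 36.9 and 13.6 CPM in the wild types and 34.3, 12.7 and 7.44 CPM in the knockouts. Its genotypes overlapped with a wide spread, and its level fell from replicate 1 to replicate 3 in both. Each knockout lay below the wild type of the same number. Tomm70a, the outer membrane receptor for carriers, had 23.3 ± 7.20 CPM (wild type) and 18.7 ± 2.75 CPM (knockout; SD, n = 3), and the pairs of means that follow are in that order. Among family members that carry other symbols, Ucp2, an uncoupling protein homologue of immune cells, averaged 1371 ± 121 and 1496 ± 194 CPM (SD, n = 3). The log2 fold changes of Mtch1 and Mtch2 were -0.10 and -0.12, and the median of these 3 genes went from -0.10 to 0.05 without knockout replicate 1. The 10 enzymes of the malate-aspartate and citrate pathways had a median of 0.07 (6 higher, 4 lower). Idh1, the cytosolic isocitrate dehydrogenase, had 13.5 ± 1.32 and 21.0 ± 7.91 CPM, while Acly, which splits exported citrate, had 332 ± 42.8 and 328 ± 34.6 CPM.

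Of the 11 other inner membrane transporters 3 had a higher and 8 a lower mean, with a median of -0.04. The serine transporter paralog Sfxn3 had 111 ± 6.37 and 133 ± 10.5 CPM without overlap. Letm1, an ion exchanger, had 136 ± 20.4 and 94.8 ± 37.1 CPM with overlap, each knockout lying below the wild type of the same number. Among 5 carnitine shuttle genes the median was 0.01, and the carnitine importer of the plasma membrane, Slc22a5, had 9.65 ± 2.43 and 15.6 ± 3.69 CPM (unadjusted p = 0.0375, adjusted p = 0.842, edgeR). The 9 one-carbon and folate enzymes had the highest median of these lists at 0.18, with 7 higher and 2 lower. Shmt1, the cytosolic serine hydroxymethyltransferase, had 11.5 ± 3.91 and 18.2 ± 2.45 CPM and did not overlap, nor did Mthfd1. Iron-sulfur and haem enzymes (14 genes, 5 higher and 9 lower) had a median of -0.08. The 1 gene of this list without overlap was Isca1, higher in knockout at 51.0 ± 2.77 and 56.3 ± 0.822 CPM. Iscu, the scaffold on which iron-sulfur clusters are built, had 129, 121 and 70.5 CPM in the wild types and 91.7, 34.0 and 28.9 CPM in the knockouts (unadjusted p = 0.0269, adjusted p = 0.842, edgeR). Its genotypes overlapped, and its level fell from replicate 1 to replicate 3 in both. Each knockout lay below the wild type of the same number. For Iscu, Letm1 and Timm29 this order by number is a description only. The share of all genes with such an order was not counted, and the labels name no pairs. Of 8 regulators of mitochondrial biogenesis 6 were higher, with a median of 0.12, which was 0.31 without wild-type replicate 1. Gabpa, a transcription factor of respiratory genes, had 42.9 ± 1.25 and 54.4 ± 5.26 CPM and Myc 92.6 ± 10.7 and 143 ± 10.6 CPM, both without overlap, and their adjusted p-values were 0.849 and 0.712 (edgeR). No gene of these lists was called by edgeR, against 0.0% of all genes, and 5 had an unadjusted p under 0.05, against 5.82% of all genes. They were 1 of 5 carnitine, 1 of 9 one-carbon, 1 of 14 iron-sulfur and haem and 2 of 8 biogenesis genes. The lists of 13, 3, 10 and 11 tested genes had 0. The genes of all lists without overlap were Sfxn3, Shmt1, Mthfd1, Isca1, Gabpa and Myc, against 10.3% of all genes tested.

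**Figure D4:**
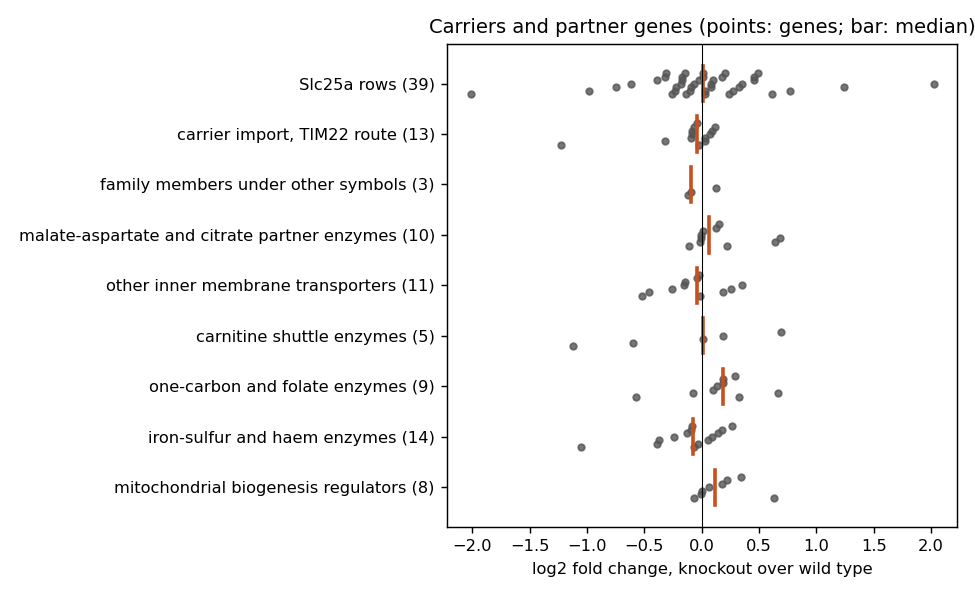
Log2 fold change, knockout over wild type, of the tested SLC25 rows and of each partner gene list, with 1 point per gene, the number of genes in brackets and a bar at the median. Medians lie between -0.10 and 0.18, and the widest scatter is among the SLC25 rows, from -2.01 to 2.03, where the extreme genes are Slc25a43 and Slc25a47.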

How the data were processed

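The authors deposited 1 table of raw counts per gene in 6 libraries. Per the file headers it also holds a mean normalized count (a signal over the libraries), the log2 fold change and standard error, the Wald score, and raw and adjusted p-values. Alignment with STAR to mm10, trimming with cutadapt and DESeq2 are named in the submitters' processing notes, while the counting tool, annotation and use of strand were not given in the sources used here. RNA came from a micro-scale column kit and libraries from a SMARTer mRNA kit, per the labels' protocols. Mean normalized counts in the table go down to 5.96 only, so library totals cover the listed genes. The deposited log2 fold changes differed by a median of 0.000179 from a DESeq2 fit with the replicate number as a term and by 0.0189 from one without it.

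The 18 rows whose gene name had become a date (0.294% to 0.308% of counts) were left out. The counts of 13605 genes were filtered with filterByExpr, scaled by TMM and tested for genotype alone with edgeR 4.0.16 (quasi-likelihood, Benjamini-Hochberg) in R 4.3.3. Intervals are 95% from the fit's t distribution, and the SE is the fold change over the square root of F. DESeq2 1.42.0, limma 3.58.1, other filters and scaling, a replicate term and leaving out each library were the alternatives. Each library counted as 1 replicate. Those of 1 genotype differed beyond sampling noise (chi-square 40.1 to 72.8 for each gene on average), which does not show that they are separate animals. Levels per kb use exon unions of GENCODE M21 (GRCm38, the assembly of mm10), which matched all 40 members. Copies were sought with blastn at 95% identity over 200 bases. On simulated counts of 12789 genes for this comparison, the test called 5.97% of genes changed 1.5-fold, 43.3% at 2-fold and 78.8% at 4-fold, with 6 false calls. The changed genes were a small set drawn only from genes averaging over 1 CPM, and no replicate effect was simulated. These rates therefore do not cover Slc25a43, Slc25a47 and Slc25a18, which average less.

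Members and lists were chosen with earlier results of these data known. Values per library are given for 6 fixed carriers (Slc25a3, Slc25a4, Slc25a5, Slc25a11, Slc25a20 and Slc25a39), for the member of each substrate class with the highest CPM and the one with the smallest p, and for up to 6 members per direction with an unadjusted p under 0.05, and values are given for up to 4 genes per partner list with the smallest p. Other genes were named after their values were seen. Among the tested members 1 enters the counts and medians but is not reported here on its own.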

Additional observations from a re-analysis of the deposited data

How the results depend on the processing

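No SLC25 row was called under any of the 13 alternatives, and the median log2 fold change of the family lay between -0.04 and 0.05. Calls over all genes were 0 by edgeR with genotype alone, 49 by DESeq2, 16 by edgeR with the replicate number as a block and 244 by DESeq2 with the block. With that block, 4 carriers in place of 3 were higher at an unadjusted p under 0.05 by both tools, Slc25a26 being added, and by DESeq2 2 in place of 1 were lower. Same-numbered libraries correlated at 0.108, 0.0823 and 0.0239 in their deviations from the genotype means, and each library correlated best with its own number. The deposited log2 fold changes also lay closer to the DESeq2 fit with the replicate term (median difference 0.000179) than to the one without it (0.0189). The labels name no pairs, so the main fit had genotype alone. Whether the numbers are pairs is not settled by these values. Among the partner lists DESeq2 made 1 call, in the biogenesis regulators, and with the block 1 call in each of 4 lists (TIM22 import, other transporters, iron-sulfur and haem enzymes, biogenesis regulators). Medians of the partner lists ran from -0.17 to 0.31 over the alternatives. Leaving out single libraries gave 1 to 4 carriers higher and 1 to 2 lower at that unadjusted p, and 0 to 1 calls over all genes. The 1 carrier higher came without wild-type replicate 1. Slc25a25 and Slc25a38 had an unadjusted p under 0.05 in all 13 alternatives, at log2 fold changes from 0.57 to 0.85 and from -0.85 to -0.68, with adjusted p-values from 0.264 and 0.265 upwards (edgeR, DESeq2, limma-voom). Values near 0 turned sign when libraries were left out, from -0.12 to 0.16 for Slc25a4, from -0.12 to 0.0733 for Slc25a5, from -0.0407 to 0.0793 for Slc25a3 and from -0.0074 to 0.0636 for Slc25a11, and the cause was not tested. With 3 libraries a genotype, depth limits rows under 100 counts most.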
